A study of Mus musculus with 6 samples.

Results

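Imprinted genes were followed through germ cells and somatic cells of fetal mouse gonads at E15.5. The list held 33 genes, taken by symbol, and the count tables named 30 of them among 26251 genes in all; Rian, Rtl1 and Peg13 were not named and were not analysed here. The single-cell libraries came from control XY testes (Amh+/+; Inhbb+/+), from dKO XY gonads (Amh-/-; Inhbb-/-) and from control XX ovaries (Amh+/+; Inhbb+/+), with 2 libraries per group. The mice had a C57BL/6 background, the deletions were inherited and not limited to a cell type, both gonads of an animal were pooled for dissociation, and the cells were frozen and thawed before capture. Amh encodes anti-Müllerian hormone and Inhbb the beta B subunit of activin B, and the design asked how fetal gonads develop without these 2 ligands.

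Imprinted genes are transcribed mainly from the copy of 1 parent. Methylation laid down in the egg or the sperm marks a control region on 1 copy, either the expressed or the silent one. Somatic cells keep these marks, whereas primordial germ cells erase them and set them anew according to their own sex. Many of the genes regulate fetal growth, and they lie in clusters in which a noncoding RNA or a shared control region acts on several neighbours. With counts from an inbred background, the parental copy that gave a transcript was not measured.

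Germ cells were those with at least 5 UMIs (unique molecular identifiers, the counted molecules) of Dazl and at least 2 of Ddx4, 2 RNA-binding genes of the germ line, and with more than 2500 and fewer than 9000 genes. The rule took 442 and 388 cells in dKO XY, 298 and 222 in control XX, and 15 and 9 in control XY, or 1374 of 39350 cells. The second control XY library fell under the minimum of 10 cells and stayed out of every test of germ cells. Of the 1374 cells, 1091 lay in the cluster led by germ cell markers and 231 in supporting clusters, where their median depth was 47747 UMIs against 35363 in the germ cluster. The male germ line genes Nanos2, Dnmt3l, Piwil4 and Tdrd9 summed to a mean of 8.47 and 3.44 UMIs per cell in control XY and to 0.275 to 0.412 in the other 4 libraries. Meiotic genes summed to 15.9 and 18.3 UMIs in control XY, with dKO XY at 53.6 and 50.4 and control XX at 196 and 216.

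Somatic types were named from clusters built without the 30 genes and led by marker genes: supporting cells (Sertoli cells of the testis and granulosa cells of the ovary), interstitial cells, Leydig cells, endothelial cells, pericytes, epithelial cells and immune cells. The libraries held 4781 to 8569 cells and 118475468 to 221675316 UMIs. Of the barcodes, 2.22% to 9.35% per control library and 24.4% and 28.3% in dKO XY had a mitochondrial share above the limit of 25%, and the part of this in the group differences was not tested. Among the cells kept, 175 of 39174 distinct barcodes occurred in more than 1 library. Amh stood at 1989 and 1872 CPM (counts per 1e6 UMIs of the summed cells) among control XY supporting cells and at 18 and 15.2 in dKO XY. Inhbb stood at 160.4 and 183 CPM in control XY, with dKO XY at 41.1 and 49.1 and control XX at 37.7 and 25.6. Whether the remaining counts fell inside the deleted parts is not given in the sources used here.

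Summed over the 30 genes, germ cells held 1603 to 2601 CPM in the 5 libraries with at least 10 of them. Supporting cells held 3456 to 7397 CPM, interstitial cells 7539 to 9971, Leydig cells 5929 to 6251 and endothelial cells 8031 to 9783. No germ cell library reached the lowest somatic sum of these 4 types. Gnas weighed heavily in these sums, with a mean of 4298 CPM in endothelial cells and 443 in germ cells. Paternally expressed genes alone (as textbooks name them) summed to 792 to 1196 CPM in germ cells and 1457 to 3097 in supporting cells. The sums of maternally expressed genes overlapped, at 352 to 973 CPM in germ cells and 619 to 3185 in supporting cells. Immune cells, at 988 to 2521 CPM, overlapped with the germ cells. By the mean over the libraries that held a type (4 XY libraries for Leydig cells), the highest level lay in endothelial cells for 7 genes, in epithelial cells for 6, in interstitial cells for 6, in germ cells for 4, in Leydig cells for 3, and in pericytes and supporting cells for 2 each. The lowest level lay in immune cells for 16 genes and in germ cells for 6 (Meg3, Mest, Plagl1, Impact, Grb10 and Gnas).

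**Figure D1:**
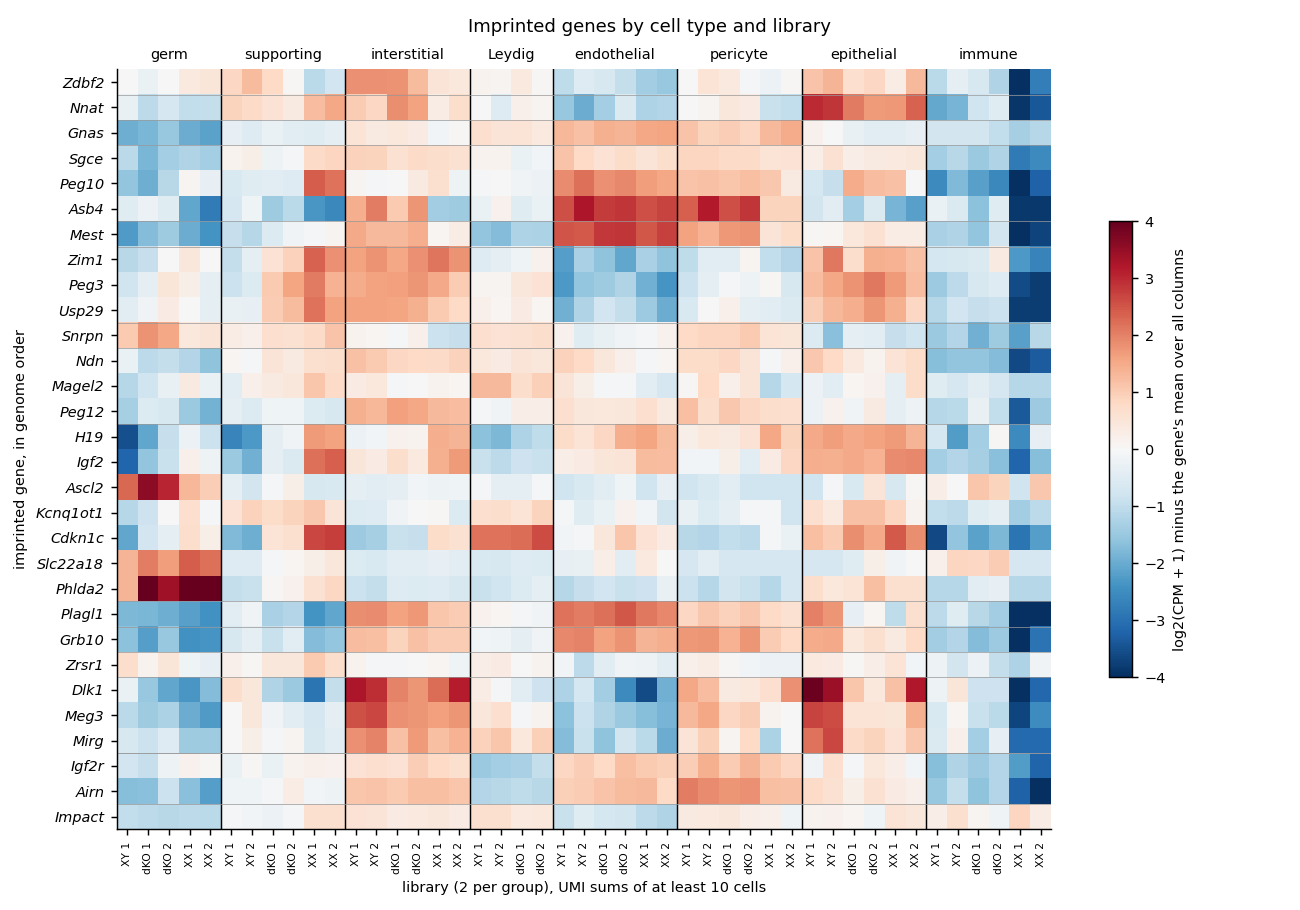
Heat map of the 30 imprinted genes (rows, in genome order, with lines between domains) in each library of 8 cell types (columns), coloured by log2(CPM + 1) minus the mean of the gene over all columns, with colours cut off at -4 and 4. Phlda2, Ascl2 and Slc22a18 are red in germ cells, most other genes are blue there, and supporting cells of control XX are red for H19, Igf2, Cdkn1c, Peg10 and the Zim1, Peg3 and Usp29 group.

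Germ cells were compared with the somatic types of the same 5 libraries, with library as a block. A gene was called at an adjusted p under 0.05 in edgeR's quasi-likelihood test over all genes. Against interstitial cells, 26 of the 30 genes were called, 4 higher and 22 lower, where 58.5% of all 16692 genes tested were called. The median log2 difference was -2.04 over the 30 genes and -0.05 over all genes. Against supporting cells 23 were called, 3 higher and 20 lower (55.0% of all genes), with a median of -1.20. Against endothelial cells 22 were called, 8 higher and 14 lower (62.8% of all genes), with a median of -0.37 beside 0.13 over all genes. The median over the 30 genes lay below the median over all genes in each of the 3 comparisons.

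The genes are also given by the expressed parental copy, as textbooks name it; the 2 sets were not tested against each other. Of 18 paternally expressed genes, 1 was higher and 14 were lower in germ cells than in interstitial cells, where 28.0% of all genes were higher and 30.5% lower. Of 10 maternally expressed genes, 3 were higher and 6 were lower. Against supporting cells the counts were 0 higher and 13 lower for the paternally expressed and 3 and 5 for the maternally expressed genes, beside 26.0% of all genes higher and 29.0% lower. Against endothelial cells they were 4 and 8, and 4 and 4, a share of calls near the 62.8% of all genes (34.0% higher, 28.9% lower). Grb10 and Gnas, whose expressed copy depends on tissue or promoter, were both lower. Phlda2, Ascl2 and Slc22a18 were the 3 maternally expressed genes that were higher than in interstitial and in supporting cells. They lie in the same stretch of chromosome 7 (chr7:142575529-143503150, mm10) with H19, Igf2, Kcnq1ot1 and Cdkn1c.

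Phlda2 encodes a small pleckstrin-homology protein that restrains placental growth. In germ cells it stood at 34.7 and 21.9 CPM in dKO XY and at 75.5 and 40.6 CPM in control XX, with 3 and 2 UMIs (4.61 and 3.69 CPM) in control XY. Supporting cells held 0.124 to 2.89 CPM and interstitial cells 0.138 to 0.543 CPM, so the germ values did not overlap with those of these 2 types. Counting error is wide for the control XY germ values. Epithelial cells, the second highest type by mean, held a mean of 2.59 CPM. The log2 difference was 4.50 ± 0.28 (SE, 5 libraries) against supporting cells, 5.89 ± 0.38 against interstitial cells and 6.72 ± 0.37 against endothelial cells.

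Ascl2, a basic helix-loop-helix factor of trophoblast and stem cells, was the gene of this stretch with the largest log2 difference between dKO XY and control XX germ cells. It stood at 19.8 and 13.5 CPM in dKO XY germ cells, 3.42 and 2.47 in control XX, and 7.69 and 14.8 (5 and 8 UMIs) in control XY. In supporting cells it reached at most 1.04 CPM. The germ cells were higher than supporting cells by a log2 difference of 4.43 ± 0.31 and than interstitial cells by 3.69 ± 0.61. Slc22a18, a transporter of the organic cation family, stood at 5.55 and 4.07 CPM in dKO XY germ cells and 7.58 and 6.35 in control XX, with 2 and 0 UMIs in control XY. Its supporting and interstitial levels were 0.0462 to 1.17 CPM, and its log2 differences were 3.03 ± 0.32 and 4.66 ± 0.30.

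Snrpn, which encodes a splicing protein of small ribonucleoproteins, was the fourth gene whose mean was highest in germ cells. Germ cells held 61.2 and 51.1 CPM in dKO XY, 22.5 and 24.3 in control XX, and 35.4 and 53.6 in control XY. Interstitial cells held 15.6 to 19.3 CPM in the 4 XY libraries and 8.67 and 8.39 in control XX, a log2 difference of 1.25 ± 0.20. Against supporting cells, at 19.3 to 38.2 CPM, the difference over the 5 libraries was 0.43 ± 0.31 and was not called (adjusted p = 0.252). The libraries did not share a direction there. The germ level was 63.7% to 226% of the supporting level of the same library, above it in both dKO XY libraries and lowest in control XX. An annotated gene that the tables do not name, Gm38393, shares 27.3% of the exonic bases of Snrpn on its strand and 10% of the last 500.

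**Figure D2:**
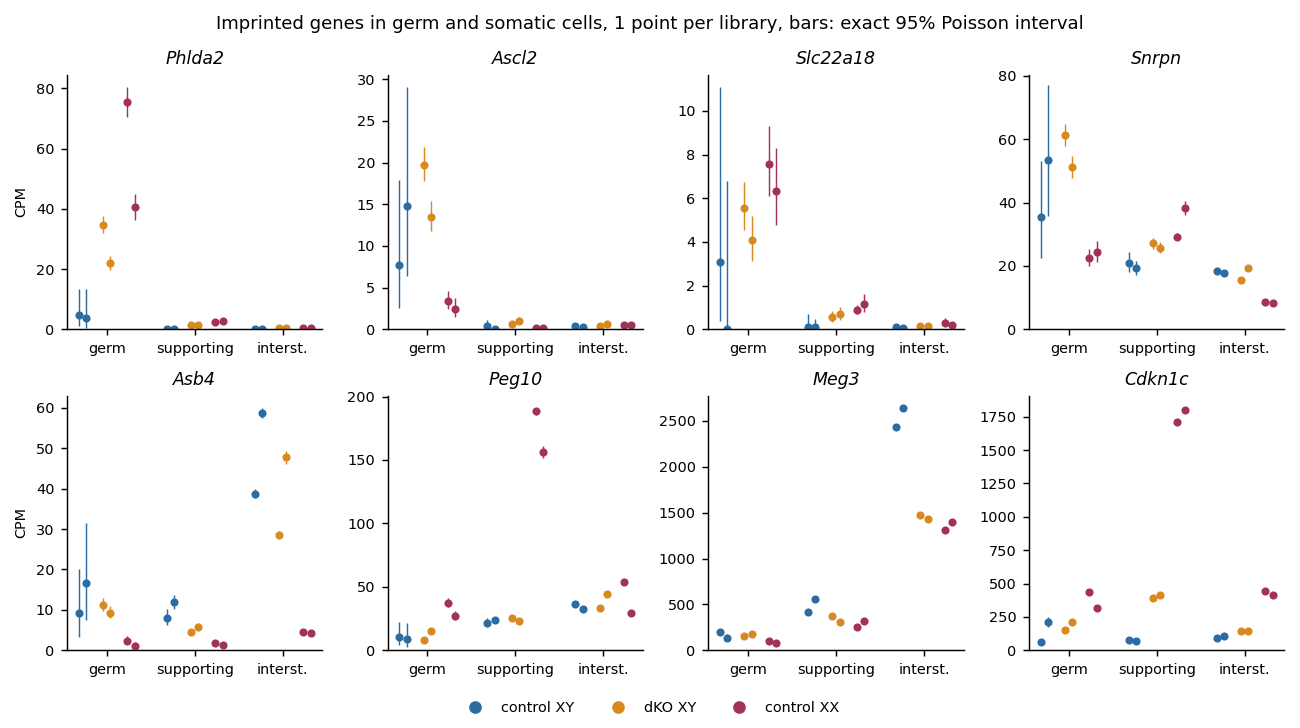
CPM of 8 imprinted genes in germ, supporting and interstitial cells, with 1 point per library coloured by group and exact 95% Poisson intervals that cover counting error only. Phlda2, Ascl2 and Slc22a18 stand above the somatic libraries in dKO XY and control XX germ cells, Asb4, Meg3 and Peg10 stand lower in germ than in interstitial cells, and the intervals are wide in control XY germ cells.

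The largest falls from interstitial to germ cells were those of Dlk1, Plagl1, Meg3 and Grb10. Dlk1, a Notch-related membrane protein that holds cells in an undifferentiated state, differed by -4.32 ± 0.28 on the log2 scale, and Plagl1, a zinc finger factor that restrains the cell cycle, by -3.78 ± 0.15. Meg3, the long noncoding RNA of the Dlk1 domain, differed by -3.74 ± 0.21 and Grb10, an adaptor that dampens insulin and growth factor signalling, by -3.36 ± 0.19. Plagl1 stood at 18.1 and 16.5 CPM in dKO XY germ cells and 13.9 and 11.8 in control XX, against at least 136 CPM in interstitial cells. Grb10 stood at 26.7 and 43.9 CPM in dKO XY germ cells, 22.8 and 24.1 in control XX, and 40.0 and 31.4 in control XY, against 234 to 302 in interstitial cells. Both genes separated germ and interstitial cells in every library. With the germ cells limited to the 1091 in the germ cluster, Grb10 stood at 20.1 and 21.7 CPM among dKO XY cells, with control XX at 18.2 and 23.3.

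Mest, an alpha/beta hydrolase gene of mesodermal tissue, was lowest in germ cells of all 8 types. It stood at 55.4 and 61.0 CPM in control XY germ cells, with dKO XY at 80.4 and 99.6 and control XX at 66.8 and 51.0. Endothelial cells held 1479 to 1971 CPM, and the log2 difference of -4.85 ± 0.16 was the largest fall among the 30 genes in that comparison. Gnas, which encodes the stimulatory G protein alpha subunit, stood at 418 and 439.6 CPM in control XY germ cells, with dKO XY at 459.9 and 562 and control XX at 410.2 and 366. Its endothelial level was 3626 to 4793 CPM (log2 difference -3.52 ± 0.14) and its supporting level 1133 to 1353 CPM (-1.45 ± 0.14). The germ cell levels include the cells in supporting clusters. With only the cells of the germ cluster, Mest stood at 68.4 and 60.2 CPM among dKO XY cells, with control XX at 19.3 and 27.9 and the first control XY library at 82.5. Gnas there stood at 326 and 302 CPM among dKO XY cells, with control XX at 271 and 274. Both genes were thus lower in the germ cluster than by the rule in dKO XY and control XX, while Mest was higher in the first control XY library (55.4 CPM by the rule).

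Not every paternally expressed gene was lower in germ cells than in every somatic type. Peg3, a zinc finger repressor, stood at 263 and 477 CPM in dKO XY germ cells and 402 and 268 in control XX, below supporting cells by -1.17 ± 0.25 and interstitial cells by -1.85 ± 0.19, but above endothelial cells, at 66.3 to 149 CPM, by 1.5 ± 0.17. With only the cells of the germ cluster, Peg3 stood at 231 and 271 CPM among dKO XY cells, with both control XX libraries at 192, and its difference ranged over the alternatives from -1.61 to -0.96 against supporting, -2.29 to -1.64 against interstitial and 1.08 to 1.69 against endothelial cells. Its neighbours Usp29 and Zim1 were likewise above endothelial cells, by 1.24 ± 0.25 and 1.59 ± 0.29 (0.71 to 1.44 and 0.98 to 1.92 over the alternatives). Kcnq1ot1, the long noncoding RNA that silences the Cdkn1c side of the chromosome 7 stretch, stood at 123 and 144 CPM in control XY germ cells, with dKO XY at 151 and 275 and control XX at 430.2 and 262. It was lower than in supporting cells (-0.95 ± 0.23) and was not called against interstitial cells (-0.24 ± 0.21, adjusted p = 0.366). The libraries did not share a direction against interstitial cells. Kcnq1ot1 in germ cells was at 61.4% to 153% of the interstitial level of the same library, with the first control XY library at 66.1%. With only the cells of the germ cluster the range was 25.3% to 141%. In the germ cluster it stood at 116 and 159 CPM among dKO XY cells, with control XX at 395 and 259.6 and the first control XY library at 47.1. Cdkn1c, an inhibitor of cyclin-dependent kinases, was also not called against interstitial cells by the rule (-0.27 ± 0.20, adjusted p = 0.278), at 97.96% and 76.3% of the interstitial level in control XX and 108% and 148% in dKO XY. With only the cells of the germ cluster it was called lower (-0.91, adjusted p = 0.0127), at 37.2% and 43.1% in control XX and 90.4% and 86.2% in dKO XY.

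**Figure D3:**
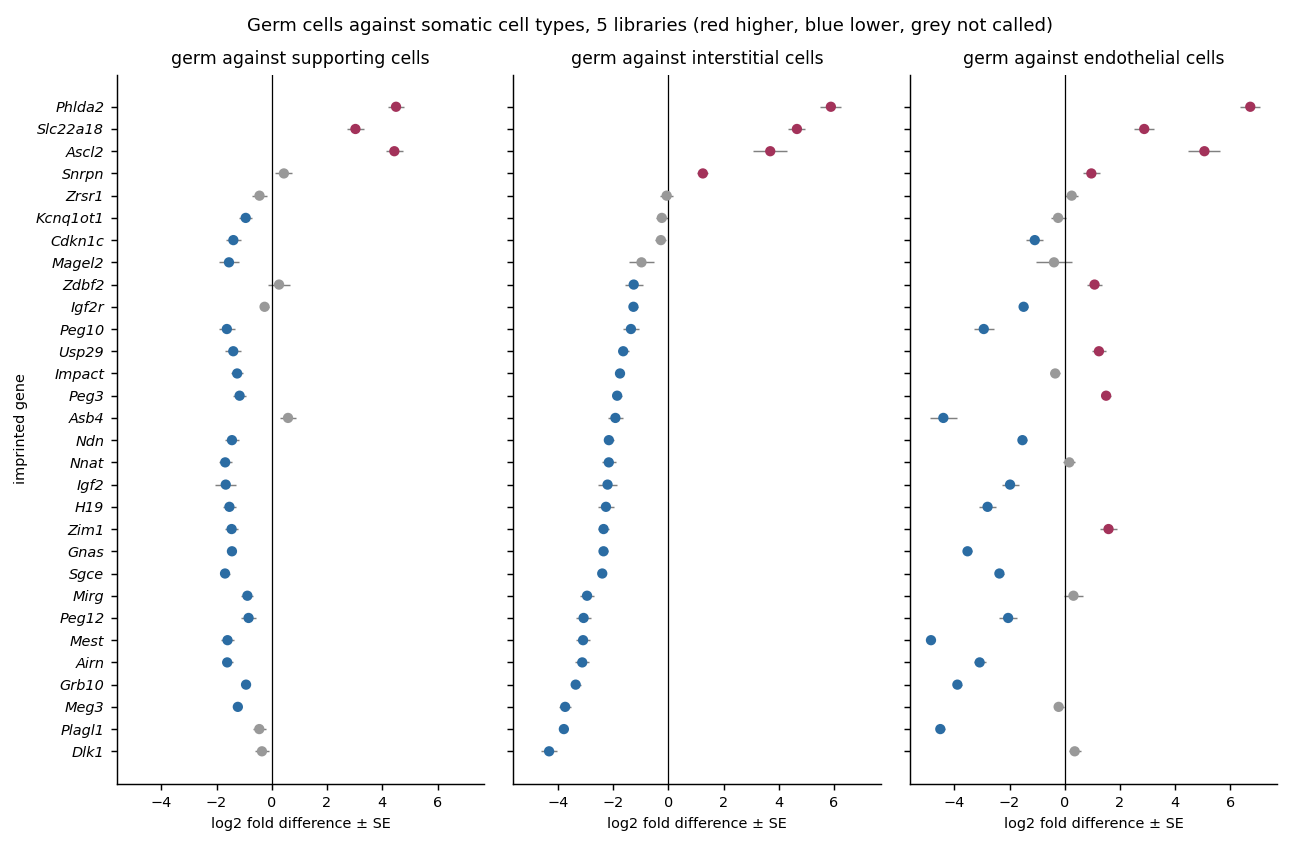
Log2 fold differences between germ cells and 3 somatic types for the 30 imprinted genes (vertical axis, ordered by the interstitial comparison), with bars of 1 SE and colours for genes called higher (red), lower (blue) or not called (grey). Phlda2, Slc22a18 and Ascl2 are higher in all 3 panels, and Peg3, Usp29, Zim1 and Zdbf2 change side between the interstitial and the endothelial panel.

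Marker genes of the somatic types were counted in germ cells too. Each of 10 interstitial markers was divided by its level in interstitial cells of the same library, and the median of these ratios was 4.11% to 7.63%. Of 21 imprinted genes with at least 20 CPM in interstitial cells of all 5 libraries, Dlk1 (3.32% to 8.67%) lay at or under the highest marker ratio in every library, and 9 did so in at least 1 library. For supporting cells the median marker ratio was 15.3% to 42.1%, and 7 of 14 such genes (Cdkn1c, H19, Mest, Ndn, Nnat, Peg10 and Sgce) lay at or under the highest marker ratio in every library. That count rests on Dmrt1 (83.1% in the first control XY and 166% in the first dKO XY library) and Gng13 (79.8% in the second dKO XY library), whose ratios stayed at 51.0%, 171% and 73.5% when the germ cells were limited to the 1091 in the germ cluster. Without these 2 markers, a choice made after their values were seen, the highest ratio in the first dKO XY library was 27.5% (Krt18), and 0 of 14 genes lay at or under the highest ratio in every library and 12 in at least 1. In the germ cluster the supporting median was 1.20% to 7.59%, with 2 of 14 genes at or under the highest ratio in every library, or 1 (Sgce) without the 2 markers. Against interstitial markers 0 of 21 did so in every library there and 13 in at least 1. The part of somatic RNA in the germ cell values was not tested. With those 1091 cells, 28 genes were called against interstitial cells (4 higher and 24 lower, beside 60.0% of all genes) and 23 against supporting cells (3 higher and 20 lower, beside 58.0%).

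Germ cells of control XX and dKO XY were compared over 4 libraries. Of the 30 genes, 15 were called, 7 higher and 8 lower in control XX, where 41.6% of all genes were called, and the medians were -0.23 and -0.01. Ascl2 was lower in control XX by -2.54 ± 0.33 and Snrpn by -1.31 ± 0.22, with no overlap between the libraries given above. Asb4, which encodes an ankyrin-repeat subunit of a ubiquitin ligase, stood at 11.2 and 9.31 CPM in dKO XY germ cells and 2.42 and 1.06 in control XX (-2.57 ± 0.39). Peg12, a gene of the FRAT family of Wnt signalling proteins, was lower by -1.40 ± 0.38, Meg3 by -0.84 ± 0.20, Mest by -0.65 ± 0.20, Mirg by -1.02 ± 0.39 and Grb10 by -0.62 ± 0.24. In germ cells the median interstitial marker was at 7.31% and 7.63% of its interstitial level in dKO XY. In control XX it was at 4.11% and 4.25%. The part of interstitial RNA in the lower values of control XX was not tested. The calls of Mirg and Grb10 were lost under 11 and 10 of 14 alternatives. Leaving out 1 library also ended the calls of Peg12 (the first dKO XY library), Meg3 (the second control XX) and Mest (the second of either group), with log2 differences over all alternatives of -1.69 to -1.19, -1.23 to -0.70 and -1.51 to -0.48.

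Higher in control XX germ cells were Peg10, Igf2, Cdkn1c, Phlda2, H19, Igf2r and Zdbf2. Peg10, a retrotransposon-derived gene, stood at 37.3 and 27.0 CPM in control XX and 8.05 and 15.3 in dKO XY, a log2 difference of 1.43 ± 0.27. Cdkn1c stood at 436 and 314 CPM in control XX and 156 and 209.6 in dKO XY (1.00 ± 0.22), and Igf2 at 9.42 and 6.82 against 2.07 and 3.95 (1.41 ± 0.37). The libraries of the groups did not overlap for these 3 genes. H19 (0.82, or 0.39 to 1.43 over the alternatives) lost its call without the first dKO XY or the first control XX library, without cells of high doublet score and with a mitochondrial share under 10%. Leaving out 1 library also ended the calls of Phlda2 (0.97, or 0.51 to 1.41; the second dKO XY or the first control XX), Igf2r (0.62, or 0.35 to 0.94; the first dKO XY or either control XX), Zdbf2 (0.54, or 0.45 to 1.08; any of the 4) and Igf2 (0.77 to 1.86; the first dKO XY). The calls of Cdkn1c and Igf2 were lost when the germ cells were limited to those in the germ cluster, where the log2 differences were 0.38 and 0.77. There Cdkn1c stood at 165 and 177 CPM in control XX and 131 and 122 in dKO XY. The calls of Peg10 (1.41) and H19 (0.62) were kept in the germ cluster. All 4 genes stood higher in control XX than in dKO XY supporting cells. Peg10 in control XX germ cells was 19.8% and 17.3% of its supporting level and H19 25.9% and 17.96%, where the median supporting marker was at 22.6% and 15.3%. In the germ cluster Peg10 was at 7.11% and 6.99% and H19 at 9.60% and 9.55%, beside marker medians of 5.72% and 6.39%. The part of supporting-cell RNA in the 4 differences was not tested. Among germ cells with at least 3 UMIs of the meiotic list and more of them than of the male list (434 and 379 cells in dKO XY and all of those in control XX), 15 genes were called, 8 higher and 7 lower (42.1% of all genes). The same rule took 12 of 15 and 7 of 9 germ cells of control XY, so it did not set meiotic cells apart, and the mean of the meiotic list in dKO XY was well below that of control XX. A split of dKO XY germ cells into male and meiotic kinds gave 1 and 0 male cells and was not carried further.

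Other imprinted genes and the genes that set or guard imprints were read from 2 further lists in germ against interstitial cells. Of 28 other imprinted genes tested, 7 were higher and 9 lower, with a median of -0.01, a share of calls near the 58.5% of all genes. By size among called genes above a minimum mean level, Slc38a4 (-2.37 ± 0.40), Cd81 (-2.06 ± 0.18), Osbpl5 (-2.04 ± 0.29) and H13 (-1.59 ± 0.17) were lower and Copg2 (1.21 ± 0.15) was higher. Of 12 genes of the imprint machinery, 2 were higher and 6 lower, against the same share of all genes. Dppa3, which shields maternal marks in the early embryo, was higher by 7.68 ± 0.71, and Kdm1b, a histone demethylase needed for imprints in the egg, by 1.44 ± 0.25. Dppa3 was also among the markers that named the germ cluster, so its rise is not independent of how the cell types were named. Zfp57, a zinc finger protein that holds methylation at imprinted loci, was lower by -2.43 ± 0.24, at 6.15 to 15.8 CPM in germ cells and 35.9 to 49.3 CPM in interstitial cells. Dnmt3a (-1.39 ± 0.28) and Tet2 (-1.03 ± 0.15) were also lower.

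In supporting cells, other imprinted genes were called higher in 8 and lower in 5 of 25 tested between control XX and control XY, and the imprint machinery in 2 and 4 of 12, where 49.2% of all genes were called, a share near that of both lists. Between dKO XY and control XY these counts were 6 and 1 of 25, and 3 and 2 of 12, where 16.9% of all genes were called.

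In supporting cells the 3 groups were then compared with each other. Between control XX, which held granulosa cells, and control XY, which held Sertoli cells, 24 of 30 genes were called, 17 higher and 7 lower in control XX (49.2% of all 15803 genes), with medians of 0.61 and 0.03. Between dKO XY and control XY, 13 were called, 10 higher and 3 lower (16.9% of all genes), with medians of 0.35 and 0.02, and 8 were called without the second control XY library (6.96% of all genes there). Between dKO XY and control XX, 17 were called, 7 higher and 10 lower in dKO XY (40.5% of all genes), with medians of -0.29 and -0.01. The first 2 comparisons share the control XY libraries, and their values are given side by side below.

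The chromosome 7 stretch held the largest rises. Cdkn1c stood at 78.6 and 67.8 CPM among control XY supporting cells, with dKO XY at 393 and 414 and control XX at 1712 and 1804. The 3 groups did not overlap, and dKO XY lay between the controls. The log2 difference was 4.54 ± 0.16 for control XX against control XY (adjusted p = 3.59e-08), 2.48 ± 0.15 for dKO XY against control XY (7.46e-06) and -2.06 ± 0.14 for dKO XY against control XX (3.05e-06).

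H19, the noncoding RNA that is transcribed from the maternal copy next to Igf2, showed the same order. It stood at 48.9 and 62.1 CPM in control XY, with dKO XY at 238 and 284 and control XX at 1007 and 940.2, with log2 differences of 4.08 ± 0.18 and 2.25 ± 0.16 against control XY. Igf2, the fetal growth factor transcribed from the paternal copy, stood at 2.24 and 1.39 CPM, 6.11 and 5.12, and 41.2 and 47.1 in the same order, with log2 differences of 4.65 ± 0.23 and 1.74 ± 0.25. Both sides of this reciprocally imprinted pair were higher in control XX and in dKO XY than in control XY. Igf2 is uncertain in level in every cell type, since an annotated gene that the tables do not name, Gm49394, overlaps it on the same strand. Gm49394 covers 62.8% of the exonic bases of Igf2 and 99.4% of the last 500.

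Phlda2 and Slc22a18 rested on few counts in supporting cells. Both had their highest mean in germ cells, which numbered 15 and 9 in control XY. The dKO XY libraries held 442 and 388 germ cells and control XX 298 and 222. The part of germ cell RNA in the somatic values of both genes was not tested. Phlda2 had 1 and 3 UMIs in the control XY libraries, with sums of 96 for dKO XY and 277 for control XX, which gave ratios to control XY of 8.17 (exact 95% interval 3.09 to 30.6, counting error only) and 14.8 (5.71 to 54.7). Slc22a18 had 1 and 2 UMIs in control XY, 43 in dKO XY and 108 in control XX, with ratios of 4.88 (1.56 to 24.6) and 7.69 (2.56 to 37.9), and its dKO XY call was lost under 9 of 15 alternatives, among them leaving out any 1 of the 6 libraries. Kcnq1ot1, in the same stretch, stood at 403 and 509.7 CPM in control XY, with dKO XY at 454 and 501 and control XX at 572 and 383. Its groups overlapped, and it was not called in any of the 3 comparisons (log2 differences 0.02 ± 0.20, 0.08 ± 0.20 and 0.07 ± 0.20).

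The Zim1, Peg3 and Usp29 domain (chr7:6671269-6967219, mm10) moved together across its 3 genes. Peg3 and Usp29, a ubiquitin protease gene, are read in opposite directions from starts 147 bases apart, and Zim1, a zinc finger gene, is maternally expressed beside them. The bases before these starts are shown because 1 short stretch serves both paternally expressed genes; they are RefSeq sequence (GRCm38.p6), read on the minus strand, with CpG pairs, where methylation is laid down, in capitals. The stretch between the starts of Peg3 and Usp29 (chr7:6730432-6730577, 146 bases) holds 5 CpG pairs, and the bases before the Zim1 start (chr7:6696451-6696682, 232 bases) hold 12.
Peg3 and Usp29: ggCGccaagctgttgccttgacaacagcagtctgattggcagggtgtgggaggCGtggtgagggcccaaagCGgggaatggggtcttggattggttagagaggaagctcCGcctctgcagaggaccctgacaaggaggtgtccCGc
Zim1: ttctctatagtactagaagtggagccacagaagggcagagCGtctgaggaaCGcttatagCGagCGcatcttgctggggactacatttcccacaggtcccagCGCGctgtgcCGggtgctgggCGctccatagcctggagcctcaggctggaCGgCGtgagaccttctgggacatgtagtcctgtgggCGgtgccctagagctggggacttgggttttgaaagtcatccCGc

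Peg3 stood at 186 and 234 CPM among control XY supporting cells, with dKO XY at 709.8 and 1021 and control XX at 1453 and 895. Both dKO XY libraries lay above control XY, and the 2 control XX libraries lay on either side of the higher dKO XY library. The log2 differences against control XY were 2.43 ± 0.26 for control XX and 2.06 ± 0.26 for dKO XY; dKO XY against control XX was not called (-0.37 ± 0.25). Usp29 stood at 10.3 and 10.1 CPM in control XY, with dKO XY at 27.0 and 33 and control XX at 61.5 and 42 (2.30 ± 0.21 and 1.57 ± 0.21). Zim1 stood at 5.22 and 8.25 CPM, 17.1 and 22, and 60.6 and 42.3 in the same order (2.84 ± 0.25 and 1.51 ± 0.25). Over the alternatives Zim1 ranged from 2.55 to 3.90 in control XX and from 0.29 to 2.47 in dKO XY, with the highest values without cells of high doublet score. For all 3 genes no library of control XX or dKO XY reached down to control XY.

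The Dlk1 domain on chromosome 12 went the other way. The bases before the starts of its protein-coding and its first noncoding gene are shown because the 2 genes are imprinted in opposite directions and were both lower in control XX; they are RefSeq sequence of the plus strand, with CpG pairs in capitals. The Dlk1 stretch (chr12:109452573-109452822, 250 bases) holds 8 CpG pairs and the Meg3 stretch (chr12:109540746-109540995, 250 bases) holds 10. Over windows of 300 bases at annotated starts, the 39 windows of 25 imprinted genes (the promoter table used here gave no window for Peg10, Sgce, Impact, H19 and Cdkn1c) had a median of 13 CpG pairs, against 7 in 32817 windows of all genes, and 43.6% against 34.6% had at least 15. Some windows overlap, such as those of Peg3 and Usp29, which share 263 bases, and each was counted.
Dlk1: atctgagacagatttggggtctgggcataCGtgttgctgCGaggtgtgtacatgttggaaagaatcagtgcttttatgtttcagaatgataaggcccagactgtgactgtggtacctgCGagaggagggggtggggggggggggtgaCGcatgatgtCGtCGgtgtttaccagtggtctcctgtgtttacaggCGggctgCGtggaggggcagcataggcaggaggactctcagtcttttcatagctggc
Meg3: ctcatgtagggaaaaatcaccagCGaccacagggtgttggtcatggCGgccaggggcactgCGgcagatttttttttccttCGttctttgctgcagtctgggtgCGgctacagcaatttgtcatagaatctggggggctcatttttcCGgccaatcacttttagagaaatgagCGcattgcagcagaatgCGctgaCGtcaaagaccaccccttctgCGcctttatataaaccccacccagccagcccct

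Dlk1 stood at 239 and 199.9 CPM among control XY supporting cells, with dKO XY at 62.7 and 51.2 and control XX at 18.3 and 74.3. Control XY stood above all other libraries, while dKO XY fell between the 2 control XX libraries. The log2 differences against control XY were -2.32 ± 0.48 for control XX and -1.93 ± 0.47 for dKO XY, and the former ranged from -3.62 without the second to -1.62 without the first control XX library. The dKO XY call was lost in DESeq2 and without either control XY library or the second dKO XY library. Meg3 stood at 421 and 564 CPM in control XY, with dKO XY at 375 and 312 and control XX at 259 and 322. It was called for control XX (-0.81 ± 0.17, or -1.04 to -0.38 over the alternatives) and not for dKO XY (-0.51 ± 0.17, adjusted p = 0.0738). Mirg, a further noncoding RNA of the domain that hosts microRNAs, was lower in control XX (-0.81 ± 0.20). The Mirg call was lost without the second control XY or the first control XX library and without cells of high doublet score, with values of -0.93 to -0.40 over the alternatives.

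Outside these domains, genes moved in both directions. Plagl1 stood at 48.4 and 60.3 CPM among control XY supporting cells, with dKO XY at 26.5 and 28.9 and control XX at 12 and 14.9, with differences of -2.08 ± 0.16 and -0.96 ± 0.15 against control XY. Its 3 groups did not overlap. Zdbf2 (-2.08 ± 0.24), a zinc finger gene needed for early postnatal growth, Grb10 (-1.21 ± 0.17) and Asb4 (-2.63 ± 0.27) were lower in control XX, and of these Asb4 was also lower in dKO XY than in control XY (-0.97 ± 0.25). That Asb4 call was lost without the second control XY or the first dKO XY library and with a mitochondrial share under 10% (adjusted p up to 0.284, with values of -1.21 to -0.65 over the alternatives). Grb10 stood at 81.6 and 96.7 CPM in control XY, with dKO XY at 68.1 and 93.2 and control XX at 37.1 and 43.0.

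Peg10 was higher in control XX alone. It stood at 21.9 and 24.1 CPM among control XY supporting cells, with dKO XY at 25.3 and 23.5 and control XX at 188 and 156. The dKO XY libraries overlapped with control XY, with a log2 difference of 0.10 ± 0.14 beside 2.85 ± 0.15 for control XX, and the difference between dKO XY and control XX was called (-2.75 ± 0.14). Mest stood at 141 and 123 CPM in control XY, with dKO XY at 184 and 243 and control XX at 263 and 292 (1.02 ± 0.16 and 0.72 ± 0.16). The Mest call in dKO XY was lost without the second control XY or the second dKO XY library and with a mitochondrial share under 10% (adjusted p up to 0.127), and within a single cluster it changed sign, to -0.58.

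Smaller rises in control XX were called for Ndn, a neuronal growth regulator, at 104 and 95.4 CPM in control XY, with dKO XY at 142 and 128 and control XX at 157 and 164 (0.64 ± 0.12 and 0.45 ± 0.12). The Ndn call in dKO XY was lost under 6 of 16 alternatives, among them leaving out any of the 4 XY libraries, with values of 0.37 to 0.62. Nnat, a membrane proteolipid of calcium handling, stood at 105 and 97.4 CPM in control XY, with dKO XY at 84.6 and 73.1 and control XX at 135 and 167 (0.53 ± 0.14 and -0.34 ± 0.14, the latter not called). Sgce, Snrpn, Impact, Zrsr1 and Magel2 were higher in control XX by 0.59 to 1.43 on the log2 scale and were not called in dKO XY. Leaving out 1 library ended the control XX calls of Nnat (0.39 to 0.67 over the alternatives; the second control XY or the second control XX), Zrsr1 (0.59 to 0.95; the second control XY) and Magel2 (1.06 to 2.33; the first control XY or the first control XX). Gnas, at 1133 to 1353 CPM in all 6 libraries, Igf2r, Airn and Peg12 were not called in either comparison with control XY.

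**Figure D4:**
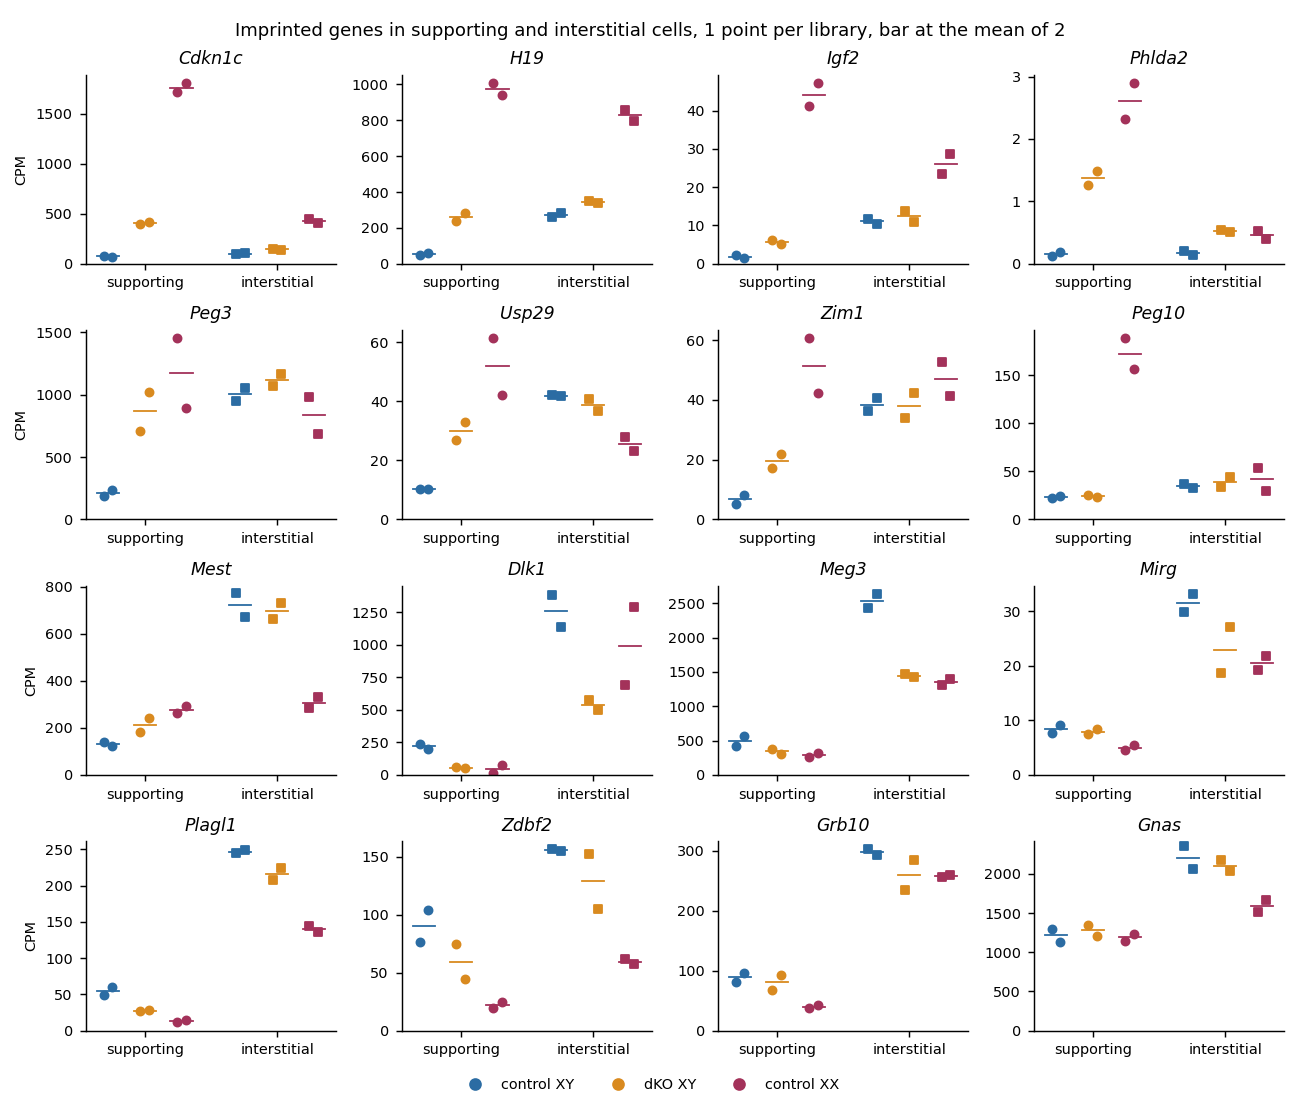
CPM of 16 imprinted genes in supporting cells (circles) and interstitial cells (squares), with 1 point per library coloured by group and a bar at the mean of the 2 libraries. In supporting cells the dKO XY points lie between the controls for Cdkn1c, H19, Igf2, Usp29, Zim1 and Plagl1, with control XY for Peg10, and with control XX for Dlk1.

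Supporting cells of dKO XY were spread over 3 clusters, and the values above mix them. The cluster led by Sertoli markers held 735 and 411 of them, the cluster led by granulosa markers 68 and 18, and another cluster, led by Kctd14, Rhox8 and Serpinb6a and called the third here, 486 and 500. Control XY supporting cells lay in the Sertoli-led cluster (244 and 519) and the third (17 and 23), and control XX cells in the granulosa-led cluster (2926 and 1156). In dKO XY, Cdkn1c stood at 222 and 243 CPM in the Sertoli-led cluster, 539 and 547 in the third and 1486 and 1215 in the granulosa-led cluster. Control XY held 64.9 and 51.2 in the Sertoli-led cluster and control XX 1714 and 1806 in the granulosa-led cluster. Peg3 in dKO XY stood at 364 and 429 CPM, 1209 and 1534, and 1425 and 1800.1 in the same 3 clusters.

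Within the Sertoli-led cluster alone, dKO XY against control XY called 12 of 28 genes, 6 higher and 6 lower (18.2% of all genes there). Cdkn1c (1.99 ± 0.15), H19 (1.33 ± 0.15), Peg3 (0.91 ± 0.15) and Usp29 (0.67 ± 0.17) were higher there too, and Dlk1 (-1.99 ± 0.15), Plagl1 (-1.37 ± 0.16) and Asb4 (-1.10 ± 0.26) lower. Of genes not called over all supporting cells, Snrpn (0.48 ± 0.14, adjusted p = 0.0353) and Ascl2 (2.75 ± 0.72) were called higher within the cluster, and Sgce (-0.64 ± 0.13, adjusted p = 0.00416) and Nnat (-0.61 ± 0.13, adjusted p = 0.0071) lower. The Ascl2 value rests on few counts, with 4 UMIs over all supporting cells of control XY. Snrpn and Ascl2 both had their highest mean in germ cells, which were few in control XY. The part of germ cell RNA in their rises within the cluster was not tested. The rises of Igf2 (0.38 ± 0.37) and Zim1 (0.29 ± 0.25) were not called within the cluster. Mest changed sign: it stood at 148 and 119 CPM in control XY and 81.7 and 99.4 in dKO XY in the Sertoli-led cluster (-0.58 ± 0.16, called lower), while the third cluster stood at 325 and 369 CPM in dKO XY. Within the granulosa-led cluster alone, dKO XY against control XX called 4 of 29 genes (3.71% of all genes), with Peg10 (-0.98 ± 0.20), Igf2 (-0.93 ± 0.26) and Nnat (-0.79 ± 0.20) lower and Mest (0.72 ± 0.17) higher in dKO XY. Cdkn1c (-0.26 ± 0.18) and H19 (-0.56 ± 0.18) were not called there. That fit rested on 68 and 18 dKO XY cells.

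**Figure D5:**
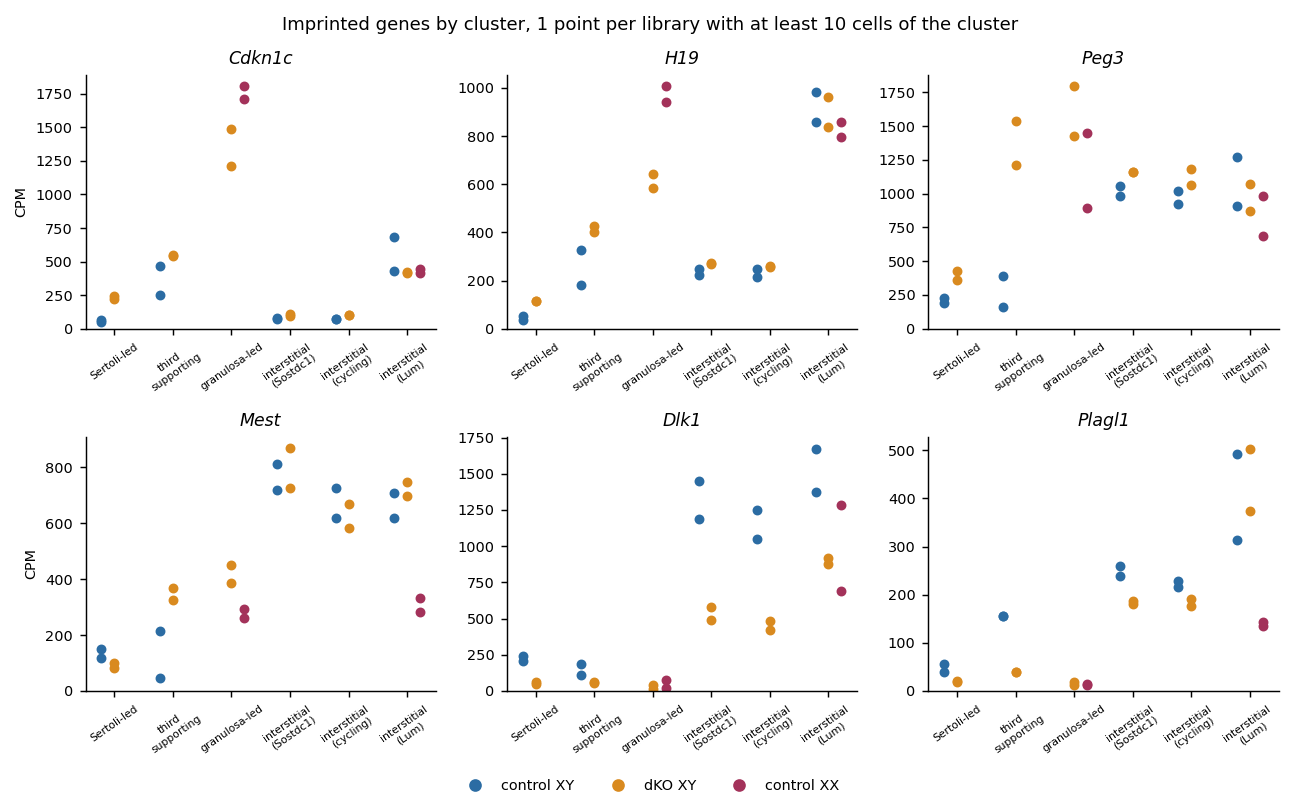
CPM of 6 imprinted genes in 3 supporting and 3 interstitial clusters, with 1 point per library that holds at least 10 cells of the cluster, coloured by group. In dKO XY the means of Cdkn1c, H19 and Peg3 increase from the Sertoli-led through the third to the granulosa-led cluster, and within the interstitial cluster led by Lum control XX stands below the other groups for Mest.

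In interstitial cells, 12 of 30 genes were called between control XX and control XY, 5 higher and 7 lower (25.3% of all 16769 genes), with medians of -0.16 and 0.00. Between dKO XY and control XY 5 were called, 3 higher and 2 lower (5.74% of all genes), and between dKO XY and control XX 11, 7 higher and 4 lower (26.5% of all genes). Cdkn1c stood at 96.0 and 106 CPM in control XY, with dKO XY at 144 and 142 and control XX at 445 and 411, and H19 at 261 and 286, 349 and 339, and 858 and 795. The control XX libraries stood above all others, with log2 differences of 2.15 ± 0.10 and 1.66 ± 0.10 against control XY, and Igf2 was higher by 1.31 ± 0.17.

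The clusters held unequal numbers of the groups. Nearly all interstitial cells of control XX (1539 and 2945) lay in the cluster led by Lum, which held 281 and 248 control XY cells beside 676 and 319 from dKO XY. In that cluster Cdkn1c stood at 428 and 681 CPM in control XY, with dKO XY at 414 and 423 and control XX at 446 and 412. Control XX overlapped with each of the other groups there, and dKO XY lay below control XY. Within it the differences of control XX against control XY were -0.33 ± 0.19 for Cdkn1c, -0.12 ± 0.14 for H19 and -0.35 ± 0.16 for Igf2, none of them called and all of the opposite sign to the whole type. The differences that were called in the whole type and within the cluster were those of Asb4 (-3.38 ± 0.28 and -2.22 ± 0.36), Mest (-1.16 ± 0.14 and -1.06 ± 0.15), Meg3 (-0.84 ± 0.12 and -1.08 ± 0.15) and Plagl1 (-0.75 ± 0.09 and -1.48 ± 0.20). The cluster called 7 of 27 genes for control XX against control XY (11.8% of all genes), 7 for dKO XY against control XX (13.1%) and 0 for dKO XY against control XY in edgeR (0.0372%, or 5 of 13437 genes, with 948 genes and 4 of the 27 at an unadjusted p under 0.05; DESeq2 was not run on this cluster).

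Mest stood at 772 and 670.2 CPM in control XY interstitial cells, with dKO XY at 664 and 731 and control XX at 284 and 332. Meg3 stood at 2427 and 2636 CPM in control XY, with dKO XY at 1471 and 1425 and control XX at 1308 and 1398. Over the whole type, the dKO XY libraries lay with control XY for Mest and near control XX for Meg3. Within the cluster led by Lum, Meg3 was called higher in dKO XY than in control XX (0.59 ± 0.15). It was not called there against control XY (-0.49 ± 0.15). Mest was also called higher there in dKO XY than in control XX (1.16 ± 0.15). Dlk1 stood at 1384 and 1137 CPM in control XY, with dKO XY at 578 and 498 and control XX at 694 and 1285. The 2 control XX libraries lay on either side of the lower control XY library. Dlk1 was called lower in dKO XY than in control XY (-1.23 ± 0.29, adjusted p = 0.0476), as was Meg3 (-0.81 ± 0.12), while Cdkn1c (0.50 ± 0.10), Nnat (0.83 ± 0.18) and Phlda2 were higher. Each of these 5 calls was lost without at least 1 library, and leaving out either control XY library left 0 of them, with 1.53% and 2.28% of all genes called.

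The difference between supporting and interstitial cells in the effect of the group was tested directly, with library as a block. For control XX against control XY, 23 of 30 genes were called, 18 with a more positive and 5 with a more negative signed difference in supporting cells (46.0% of all genes). For dKO XY against control XY, 13 were called, 9 higher and 4 lower (19.9% of all genes). Peg3, Usp29 and Zim1 differed by 2.58 ± 0.16, 2.88 ± 0.19 and 2.43 ± 0.16 on the log2 scale in the first test and by 1.86 ± 0.16, 1.65 ± 0.20 and 1.49 ± 0.16 in the second. In interstitial cells Peg3 was at 684 to 1164 CPM in all 6 libraries. Both tests share the control XY libraries.

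Leydig cells, the androgen-producing cells of the testis, were present in the 4 XY libraries. Of 29 genes tested between dKO XY and control XY, 6 were called, 3 higher and 3 lower (9.30% of all genes); 1 was called without the second control XY library (7.81% of all genes) and 10 without the first dKO XY library (13.3%). Dlk1 stood at 181 and 142 CPM in control XY and 108 and 81.9 in dKO XY (-0.79 ± 0.16), a call lost without cells of high doublet score and with the imprinted genes kept in the clustering (-1.13 to -0.35 over the alternatives, adjusted p up to 0.215). Meg3 stood at 573 and 666 against 402 and 456 (-0.56 ± 0.10). H19 stood at 98.4 and 88.3 CPM against 131 and 154 (0.58 ± 0.10). The calls of H19 and Meg3 were lost without the second control XY library (values over the alternatives 0.14 to 0.72 and -0.73 to -0.40). Sgce (-0.36 ± 0.09), Peg3 (0.39 ± 0.08) and Mest (0.37 ± 0.09) were also called, and these 3 calls were each lost without either control XY library (-0.43 to -0.32, 0.06 to 0.50 and 0.07 to 0.66 over the alternatives). Cdkn1c stood at 1194 and 1210.0 CPM in control XY and 1268 and 1640.2 in dKO XY and was not called (0.24 ± 0.12). These levels lay above the XY libraries of supporting cells and below control XX supporting cells.

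In endothelial cells and pericytes the groups were compared in the same way, with 50 to 296 cells per library in the pericyte sums. Between control XX and control XY endothelial cells, 4 of 26 genes were called, 2 in each direction (4.33% of all genes). Without the second control XY library 0 were called (0.862% of all genes), without the first 1 (2.39%), without the first control XX library 1 (2.48%), and without the first or the second dKO XY library 7 (5.71% and 5.77%). Of the 4, Igf2 (1.07 ± 0.18) and H19 (0.84 ± 0.19) were higher, and Ndn (-0.79 ± 0.14) and Grb10 (-0.52 ± 0.12) lower. Between dKO XY and control XY endothelial cells, edgeR called 0 of 26 genes (0.392% of all genes, with 996 genes at an unadjusted p under 0.05) and DESeq2 called 1; without the first dKO XY library edgeR called 3 (0.769% of all genes). Between control XX and control XY pericytes, 9 of 27 genes were called, 2 higher and 7 lower (7.64% of all genes), and 5 were called without the first control XY library (4.98%). There Cdkn1c (1.05 ± 0.14) and H19 (0.95 ± 0.17) were higher, and Asb4 (-1.93 ± 0.26), Meg3 (-1.31 ± 0.14), Nnat (-0.98 ± 0.17), Mest (-0.82 ± 0.14), Grb10 (-0.80 ± 0.15), Airn (-0.74 ± 0.15) and Ndn (-0.59 ± 0.17) were lower. The calls of H19, Mest, Airn and Ndn were lost without the first control XY library, and that of Ndn under 7 of 15 alternatives. Between dKO XY and control XY pericytes, edgeR called 0 of 27 genes (0.250% of all genes, with 709 genes at an unadjusted p under 0.05) and DESeq2 called 0.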

How the data were processed

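Single-cell RNA of fetal gonads was captured with the 10x Genomics protocol in 6 libraries, 2 biological replicates per genotype. The authors made the deposited counts of UMIs per gene and cell barcode with Cell Ranger (mm10, per the labels) and corrected them for swapped barcodes; the annotation release and the strand setting are not given in the sources used here. Barcodes with more than 2500 and fewer than 9000 genes, under 25% mitochondrial and under 20% Hbb UMIs were kept. Cells were clustered in Seurat 5.3.0 (3000 variable genes without the imprinted genes, 20 components, resolution 0.21). Doublet scores came from Scrublet in scanpy 1.11.5, and leaving out the top 8% was an alternative. UMIs were summed per library and type (at least 10 cells) and tested in edgeR 4.0.16 (filterByExpr, TMM, quasi-likelihood, Benjamini-Hochberg over all genes) with DESeq2 1.42.0 as an alternative, in R 4.3.3. Germ against somatic fits and the interaction had library as a block; fits within a type shared the spread of all its libraries. SE is the log2 fold divided by the square root of F. The scripts were tested on simulated data. For the 12 genes with the highest mean CPM, values in every library that held the type are given in at least 1 cell type. Other values are given as ranges or log2 differences. Of the lists of other imprinted genes and imprint machinery, the 5 called genes with the largest change above a minimum mean level were named. The members and lists were chosen with earlier results of these data known. Exact intervals are Poisson intervals and cover counting error only.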

Additional observations from a re-analysis of the deposited data

Results flagged for a closer look

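The group difference in supporting cells minus that in interstitial cells was tested for each imprinted gene, and the genes called are given here by that value on the log2 scale. For control XX against control XY the signed difference was more positive in supporting cells for Igf2 (3.29), Usp29 (2.88), Peg3 (2.58), Peg10 (2.53), Zim1 (2.43), H19 (2.38), Cdkn1c (2.35), Phlda2 (2.35), Mest (2.14), Magel2 (1.73), Snrpn (1.67), Nnat (0.84), Ndn (0.79), Impact (0.77), Asb4 (0.74), Zrsr1 (0.74), Sgce (0.73) and Gnas (0.29). Among these, Asb4 was lower in control XX in both types, by a smaller fall in supporting cells (-2.63 beside -3.38), and Usp29 (2.30 beside -0.66), Mest (1.02 beside -1.16) and Snrpn (0.69 beside -1.02) were called in opposite directions in supporting and interstitial cells. The signed difference was more negative in supporting cells for Dlk1 (-2.31), Plagl1 (-1.37), Grb10 (-1.11), Zdbf2 (-0.80) and Kcnq1ot1 (-0.40).

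For dKO XY against control XY it was more positive in supporting cells for Cdkn1c (1.96), H19 (1.89), Peg3 (1.86), Usp29 (1.65), Igf2 (1.54), Zim1 (1.49), Magel2 (1.42), Mest (0.72) and Ndn (0.71), and more negative for Nnat (-1.20), Plagl1 (-0.79), Asb4 (-0.60) and Kcnq1ot1 (-0.40). Both sets share the control XY libraries. The clusters that make up each type differ between the groups, and their part in these values was not tested.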

How the results depend on the processing

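Of 264 counts of called imprinted genes under alternatives, 230 stayed within 1.5 times the count reported and 34 did not; 8 of 18 comparisons, among them all 3 of germ with somatic cells, had none that moved. Of 3676 values of single genes, 3191 kept their direction and side of the threshold, 271 lost the call, 200 gained it and 14 changed sign. The cluster fits and the limit to germ cells in the germ cluster were chosen after seeing the data. Beside each count the share of all genes called in the same fit is given. In single clusters the counts were 4 (3.71%) in place of 17 (supporting, dKO XY against control XX, granulosa-led), and for the interstitial cluster led by Lum 7 (11.8%) in place of 12 (control XX against control XY), 0 (0.0372%) in place of 5 (dKO XY against control XY) and 7 (13.1%) in place of 11 (dKO XY against control XX). With the replicate number as a block, interstitial dKO XY against control XY gave 1 (3.63%) in place of 5 and Leydig cells 17 (20.5%) in place of 6. Among supporting and interstitial cells, same-numbered libraries correlated at -0.19 to 0.09 in their deviations. Leydig cells and other types were not measured in this way. With 2 libraries per group, these values cannot show whether the numbers pair the libraries. With no filter on low counts, Leydig cells gave 10 (12.2%), endothelial cells 9 (5.75%) in place of 4 (control XX) and 6 (1.84%) in place of 0 (dKO XY), and pericytes 2 (1.14%) in place of 0 (dKO XY). With a mitochondrial share under 10%, Leydig cells gave 3 (5.14%). Endothelial dKO XY against control XY gave 1 in DESeq2 (0.6%), 2 without high doublet scores (0.773%), 1 without somatic cells holding a Dazl or Ddx4 UMI (0.516%) and 1 with only the 2 groups fitted (0.687%), and pericytes gave 1 with only the 2 groups (0.465%). The cause was not tested.

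Leaving out 1 library gave 8 to 12 called imprinted genes (6.96% to 16.6% of all genes) in supporting dKO XY against control XY, 0 to 6 (1.53% to 5.95%) in the same interstitial comparison, 1 to 10 (7.61% to 13.3%) in Leydig cells, 0 to 7 (0.862% to 5.77%) and 0 to 3 (0.115% to 0.769%) in endothelial control XX and dKO XY against control XY, and 5 to 10 (3.94% to 7.83%) and 0 to 1 (0.122% to 0.517%) in the same pericyte comparisons. A sample left alone in its group was assumed to vary like the others. Signs turned for Nnat in germ against endothelial cells (-0.89 with the germ cluster in place of the rule, -1.09 with both), Mest in the Sertoli-led cluster (-0.58), Asb4 (-1.71), Usp29 (0.67) and Mest (0.72) in the granulosa-led cluster, and in the cluster led by Lum Cdkn1c (-0.33), H19 (-0.12) and Igf2 (-0.35) for control XX against control XY, Cdkn1c (-0.43) for dKO XY against control XY, and H19 (0.054) and Igf2 (0.51) for dKO XY against control XX. Dlk1 in pericytes was -0.73 without the second control XX library, and the supporting minus interstitial difference of Meg3 was 0.43 without high doublet scores.

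Counts over all genes moved by over 1.5 times from 6396 to 513 (granulosa-led cluster), from 4236 to 1585, 962 to 5 and 4438 to 1759 (cluster led by Lum), and for dKO XY against control XY from 962 to 1611 (no filter) and 609 (replicate block) in interstitial cells, from 1372 to 2640 (no filter), 727 (mitochondrial share), 906 (imprinted genes kept in the clustering) and 3027 (replicate block) in Leydig cells, from 47 to 72 (DESeq2), 354 (no filter), 89 (doublet scores) and 81 (only the 2 groups) in endothelial cells, from 30 to 214 (no filter), 10 (doublet scores), 11 (Dazl or Ddx4 UMI) and 56 (only the 2 groups) in pericytes, and from 3417 to 2097 (mitochondrial share) in the interaction. For control XX against control XY the endothelial count moved from 519 to 1105 (no filter). Leaving out 1 library moved it to as few as 1144 of 2673 in supporting cells, 261 of 962 in interstitial cells and 1925 of 3417 in the interaction (dKO XY against control XY), to 2602 of 4236 in interstitial and 105 of 519 in endothelial cells and 495 of 916 in pericytes (control XX against control XY), and to between 14 and 94 in place of 47 in endothelial cells and between 15 and 65 in place of 30 in pericytes (dKO XY against control XY). The 15 and 9 germ cells in control XY, and sums under 30 UMIs for Phlda2, Ascl2 and Slc22a18, limit the precision of those values.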

Other observations

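The 2 libraries of a group differed in the same direction across somatic types for a number of imprinted genes in every group. In control XX the second library was higher for Dlk1, Ndn and Gnas in 6 of 6 somatic types, and lower for Peg3, Zim1, Igf2r and Airn in 6 of 6. In dKO XY it was higher for Kcnq1ot1, Sgce, Igf2r, Mirg, Asb4 and Grb10 and lower for Ndn and Gnas in 7 of 7, and in control XY higher for Igf2r, Zim1 and Mirg in 7 of 7. In control XX supporting cells Dlk1 stood at 18.3 and 74.3 CPM, and Peg3 at 1453 and 895. These genes were picked after their values were seen, and the libraries were not tested against each other. The share of all genes with such an order was not counted, so the order is not shown to be particular to imprinted genes.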
